A study of Mus musculus with 12 samples.

Results

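The genotype by activity interaction is the difference between 2 responses to the same drug treatment, one measured in mouse brain slices labelled with a Cre transgene and the other in slices without it. For each gene it is the treated minus vehicle difference in slices labelled Cre, minus the treated minus vehicle difference in slices without Cre, on the scale of log2(CPM + 1). CPM counts a gene's reads in every 1000000 reads of its library. A negative value means that the response went lower in the slices labelled Cre, and a positive value that it went higher. Members were genes whose CPM averaged 1 or more across all libraries, which left 13048 of the 21967 genes in the table, and 12 of 12 libraries entered.

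Organotypic slice cultures, brain slices that keep their local circuits in a dish, were cut from pups at postnatal day 6 and held 8 days in vitro. Every slice carried 2 floxed Mef2c alleles (Mef2c fl/fl), controls included, and the slices differed in whether they also carried CaMKIIα-Cre +/-, a driver active in forebrain excitatory neurons. Vehicle slices received 1% DMSO with 1% water. Treated slices received 100 µM picrotoxin, which blocks GABA-A receptors, with 100 µM 4-aminopyridine, which blocks voltage-gated potassium channels, a combination that drives network firing. The 4 groups, vehicle and treated without Cre and vehicle and treated labelled Cre, held 3 libraries each. The time of drug exposure, and whether the libraries of a group came from separate animals, is not given in the sources used here. Because these are bulk libraries, fewer cells of a type and less RNA per cell cannot be told apart.

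Neuronal activity switches on immediate early genes within minutes through transcription factors already present in the nucleus, among them CREB, SRF and the MEF2 family. MEF2 proteins hold target genes off when bound to class IIa histone deacetylases and activate them after calcium entry. Many immediate early products, such as the FOS and JUN proteins that pair into AP-1, are transcription factors that then act on slower genes. The interaction asks whether the size of that response differs with genotype, apart from any difference at rest.

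Mef2c itself went against its label. Its level was 883, 1129 and 995 CPM in the vehicle libraries without Cre and 2143, 2209 and 2449 CPM in the vehicle libraries labelled Cre. The treated libraries held 974, 1225 and 1041 CPM without Cre and 2220, 1944 and 2304 CPM labelled Cre. Mef2c was thus higher in every library labelled Cre, by 1.18 on the log2 scale in vehicle and 1.00 under treatment (limma adjusted p = 2.64e-05 and 9.77e-05). Its interaction was -0.18 (95% interval -0.51 to 0.15, limma adjusted p = 0.988). Gene totals cannot show whether the floxed exon is missing from these transcripts. If the labels were exchanged, every interaction below would change sign and keep its size. Library depth was 82235674 to 140390406 reads, which puts 1 read at 0.00712 to 0.0122 CPM, and 3.03% to 5.44% of reads were mitochondrially encoded. Excitatory neuron, interneuron, astrocyte, microglia, oligodendrocyte lineage and endothelial markers were detected in all 4 groups, as in whole brain tissue.

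Among all genes the interaction was small. Its median was 0.02, with quartiles at -0.07 and 0.11, and 5 genes had an absolute value of 1 or more. With a limma test adjusted over the 13048 genes, 3 genes passed (0.023% of those tested), all 3 lower in the libraries labelled Cre. None passed in the other direction (0%), where 331 genes had an unadjusted p under 0.05. Without adjustment 568 genes had a p under 0.05, or 4.35% of those tested, against 652.4 that a flat spread of p-values would give. These were 237 lower (1.82%) and 331 higher (2.54%). The intervals show what the 12 libraries could resolve, because the 95% interval lay wholly between -1 and 1 for 12769 genes (97.9%) and wholly between -0.5 and 0.5 for 9615 (73.7%). Genes that responded to treatment were resolved less well. The shares were 75.7% and 20.4% for 152 genes with an average rise of at least 1. They were 64% and 12% for 25 immediate early transcription factors. On recovered reads, edgeR with TMM scaling called 3 genes, all lower, whereas DESeq2 called 42, of which 17 were higher and 25 lower.

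**Figure D1:**
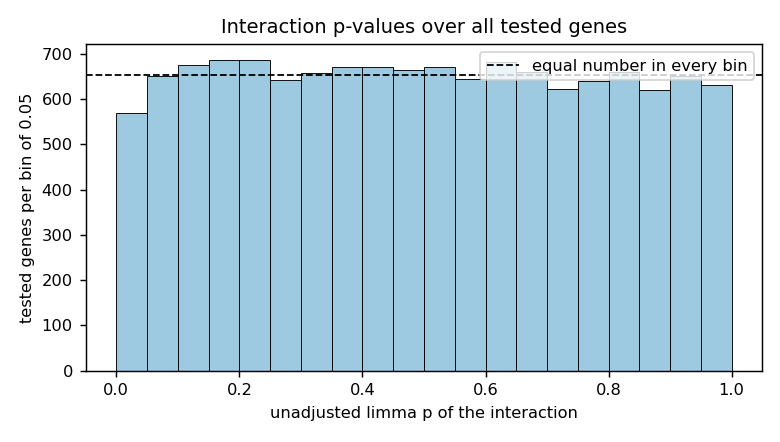
Unadjusted limma p-values of the interaction for the 13048 genes in bins of 0.05 (bars, number of genes), with a dashed line at 652.4, the number per bin if p-values were spread evenly. The first bin holds 568 genes and lies below the line.

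The 3 genes that passed encode a transcription factor subunit, a deubiquitinase and a regulator of a phosphatase. Jun, the AP-1 subunit c-Jun, lies at chr4:95049034-95052222 on the minus strand (GRCm38). Otud1, a deubiquitinase of the OTU family, lies at chr2:19657752-19660583 on the plus strand. Ppp1r10, a nuclear targeting subunit of protein phosphatase 1 also called PNUTS, lies at chr17:35916434-35932283 on the plus strand. The 250 bases before a RefSeq transcript start of each gene are shown because these 3 genes passed and Jun is a textbook MEF2 target. They come from RefSeq (GRCm38.p6), whose start for Ppp1r10 lies inside the gene span that GENCODE gives, and read 5′ to 3′ on the gene's strand, with motif matches in capitals.
Jun, chr4:95052223-95052472: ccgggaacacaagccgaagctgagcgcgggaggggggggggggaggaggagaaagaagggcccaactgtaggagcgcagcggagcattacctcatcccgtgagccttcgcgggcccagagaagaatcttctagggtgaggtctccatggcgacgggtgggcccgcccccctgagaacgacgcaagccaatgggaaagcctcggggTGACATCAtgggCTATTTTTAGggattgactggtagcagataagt
Otud1, chr2:19657481-19657730: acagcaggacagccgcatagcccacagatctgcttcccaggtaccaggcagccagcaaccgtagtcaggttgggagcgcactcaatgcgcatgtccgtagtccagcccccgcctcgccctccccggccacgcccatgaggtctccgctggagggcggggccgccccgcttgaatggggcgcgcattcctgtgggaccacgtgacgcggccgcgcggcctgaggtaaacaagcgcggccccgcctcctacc
Ppp1r10, chr17:35916946-35917195: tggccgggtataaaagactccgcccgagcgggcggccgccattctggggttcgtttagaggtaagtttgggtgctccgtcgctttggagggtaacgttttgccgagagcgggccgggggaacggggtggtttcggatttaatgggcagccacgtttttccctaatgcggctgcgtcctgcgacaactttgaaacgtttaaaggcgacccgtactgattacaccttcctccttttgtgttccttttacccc

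The windows were searched on both strands for the MEF2 and CArG consensus motifs and for TGACGTCA, TGACTCA and TGACATCA, none of which contains another. Jun held a MEF2 match, CTATTTTTAG, from 33 to 24 bases before its start, and TGACATCA from 45 to 38 bases before it. The Otud1 window, the Ppp1r10 window shown and the window of a further Ppp1r10 start, chr17:35919022-35919271, held none of the 5. Among 32851 promoter windows of the same length, 2.92% held a MEF2 match and 2.93% TGACATCA. Counted by gene, 182 of the 9854 tested genes with a window (1.85%) held a MEF2 match, and 1.96% held TGACATCA. Of the 25 measured immediate early transcription factors 19 had a window, and the MEF2 match stood in 5 of them, Jun, Atf3, Klf2, Nr4a2 and Per1, chosen here for that match. Their interactions were -1.61, -0.60, 0.18, -0.88 and 0.19, so genes with the match lay on both sides of 0. A match describes letters in a window and not a bound site.

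Jun responded to treatment in both genotypes and rose less in the libraries labelled Cre. Without Cre its level went from 47.2, 53.0 and 48.2 CPM in vehicle to 515, 400 and 393 CPM under treatment. In the libraries labelled Cre it went from 66.8, 65.1 and 54.7 CPM to 227, 159 and 152 CPM. The treated libraries labelled Cre all lay below the treated libraries without Cre, whereas in vehicle they all lay above them. The rise was 8.81-fold in mean CPM without Cre and 2.89-fold labelled Cre, or 3.10 and 1.496 on the log2 scale (limma adjusted p = 2.4e-08 and 2.17e-05). The interaction was -1.61 (95% interval -2.06 to -1.16, unadjusted p = 4.54e-06, limma adjusted p = 0.0197). Between genotypes the vehicle difference was 0.32 (limma adjusted p = 0.140) and the treated difference -1.29 (limma adjusted p = 0.000145).

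Otud1 rose without Cre and did not pass the treatment test in the libraries labelled Cre. It went from 11.9, 12.5 and 12.6 CPM in vehicle to 34.6, 35.5 and 27.3 CPM under treatment without Cre, and from 11.9, 12.3 and 11.4 CPM to 14.3, 14.4 and 14.2 CPM labelled Cre. The vehicle libraries of both genotypes overlapped, and their treated libraries did not. The treatment difference was 1.32 without Cre (limma adjusted p = 8.05e-07) and 0.25 labelled Cre (limma adjusted p = 0.0856). The interaction was -1.07 (95% interval -1.34 to -0.80, unadjusted p = 1.63e-06, limma adjusted p = 0.0197).

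Ppp1r10 showed the reverse arrangement, with a fall in the libraries labelled Cre. Without Cre it held 88.7, 95.6 and 86.0 CPM in vehicle, then 88.6, 89.8 and 89.7 CPM under treatment. Labelled Cre the values were 98.8, 101 and 101 CPM in vehicle and 63.8, 67.1 and 66.9 CPM under treatment. The treated libraries labelled Cre lay below all 9 other libraries. The treatment difference was -0.01 without Cre (limma adjusted p = 0.919) and -0.60 labelled Cre (limma adjusted p = 8.99e-06), and the interaction was -0.59 (95% interval -0.75 to -0.43, unadjusted p = 3.89e-06, limma adjusted p = 0.0197).

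All 3 kept their sign under every one of 27 alternatives. Jun ranged from -1.84 to -1.48 and passed in 16 of them, Otud1 from -1.19 to -0.91 in 17, and Ppp1r10 from -0.63 to -0.55 in 16. No gene passed when any vehicle library, without Cre or labelled Cre, was left out, nor without treated replicate 2 of the slices without Cre or treated replicate 3 of those labelled Cre. No gene passed when same-numbered libraries of a genotype were blocked, or without the 4 libraries with low Y-linked values. The highest adjusted p was 0.152 for Jun and 0.290 for both others.

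**Figure D2:**
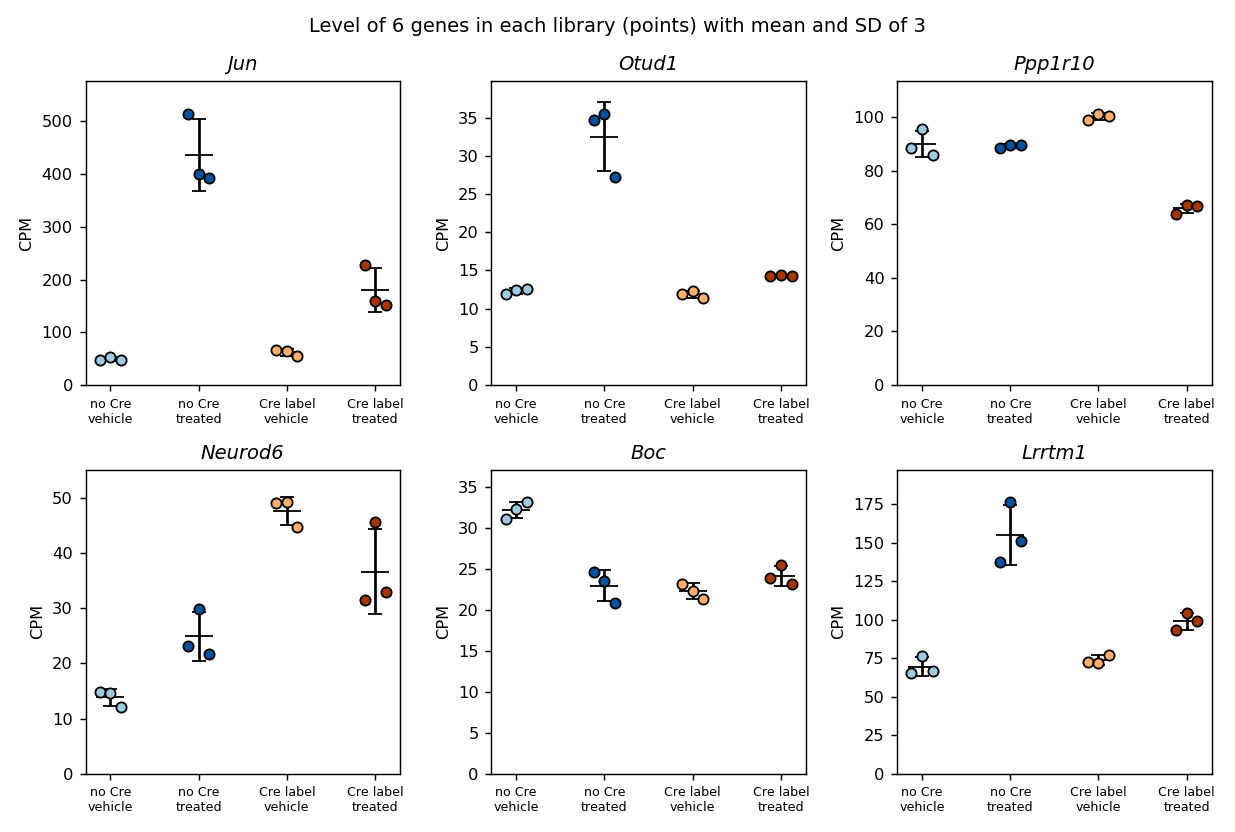
CPM in each of the 12 libraries (points, 3 per group) with the group mean ± SD (bars) for Jun, Otud1, Ppp1r10, Neurod6, Lrrtm1 and Boc, on linear axes that start at 0. For Jun, Otud1 and Lrrtm1 the treated libraries labelled Cre lie below the treated libraries without Cre, and for Boc the vehicle libraries without Cre are the highest group.

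With limma, the 9 genes with the next smallest p-values on the lower side did not pass (limma adjusted p from 0.168 to 0.362), whereas DESeq2 called all 9. They were chosen by the interaction, so their responses and treated levels are given as a description. Lrrtm1, a postsynaptic adhesion protein of excitatory synapses, went from 65.3, 76.3 and 66.6 CPM to 137, 176 and 151 CPM without Cre. Labelled Cre it went from 72.3, 71.9 and 77.3 CPM to 93.0, 104 and 99.4 CPM. Its vehicle levels overlapped between genotypes while its treated levels did not, and its interaction was -0.73 (95% interval -1.004 to -0.45, limma adjusted p = 0.168). Sox4, a transcription factor of immature neurons, had treatment differences of 0.96 without Cre and 0.38 labelled Cre and an interaction of -0.58 (limma adjusted p = 0.261).

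Neurod6, a basic helix-loop-helix factor that marks forebrain excitatory neurons, stood at 14.9, 14.7 and 12.03 CPM in vehicle and 23.1, 29.9 and 21.6 CPM under treatment without Cre. With the Cre label it was measured at 49.1, 49.2 and 44.7 CPM in vehicle and 31.4, 45.6 and 32.9 CPM under treatment. The gap between genotypes in vehicle, 1.72 on the log2 scale, was 0.53 under treatment, and the interaction was -1.18 (95% interval -1.63 to -0.74, limma adjusted p = 0.168). A further 5 were Taf7 (a TFIID subunit, -0.57), Zbtb10 (a zinc finger protein, -0.89), Ephb3 (an ephrin receptor, -0.64), Cpeb3 (an RNA-binding regulator of translation at synapses, -0.57) and Prdm8 (a PRDM family transcription factor, -0.84). Their treatment differences ran from 0.78 for Taf7 to 1.34 for Cpeb3 without Cre, and from 0.06 for Prdm8 to 0.77 for Cpeb3 labelled Cre.

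On the higher side the 12 genes with the smallest p-values had interactions between 0.40 and 0.95. None passed with limma (limma adjusted p from 0.168 to 0.362), whereas DESeq2 called 9 of the 12, Boc among them. Boc, a co-receptor for Hedgehog ligands, stood at 31.1, 32.3 and 33.2 CPM in vehicle and 24.6, 23.5 and 20.9 CPM under treatment without Cre. The libraries labelled Cre held 23.2, 22.4 and 21.3 CPM in vehicle and 23.9, 25.5 and 23.1 CPM under treatment. It fell by 0.47 with treatment without Cre (limma adjusted p = 0.000672), and only its vehicle libraries without Cre stood apart from the rest. Its interaction was 0.59 (95% interval 0.37 to 0.80, limma adjusted p = 0.168).

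Kcna4, a voltage-gated potassium channel subunit that produces a rapidly inactivating current, stood at 7.71, 8.73 and 6.602 CPM in vehicle and 6.28, 6.43 and 4.84 CPM under treatment without Cre. With the label the levels were 7.82, 9.001 and 9.45 CPM in vehicle and 13.4, 12.1 and 11.6 CPM under treatment. Its groups overlapped in vehicle and separated under treatment, and its interaction was 0.80 (95% interval 0.44 to 1.16, limma adjusted p = 0.335). Mc4r, the melanocortin receptor known for control of feeding, stood at 1.39, 1.92 and 1.66 CPM in vehicle and 4.21, 4.98 and 4.39 CPM under treatment without Cre. In slices labelled Cre it was at 2.90, 2.63 and 2.69 CPM in vehicle and 10.6, 12.3 and 11.5 CPM under treatment. Mc4r rose in both genotypes, by 1.06 and 1.74 (limma adjusted p = 1.07e-05 and 1.11e-07), and was higher in the libraries labelled Cre at both treatments, with an interaction of 0.67 (limma adjusted p = 0.272). Rxfp3, a relaxin-3 receptor of low abundance at 1.42 to 4.55 CPM, had treatment differences of 0.03 without Cre and 0.98 labelled Cre and an interaction of 0.95 (limma adjusted p = 0.195).

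The other 8 on the higher side were Lingo3 (a leucine-rich repeat membrane protein, 0.64), Prkg2 (a cGMP-dependent kinase, 0.76), Ddx20 (a helicase of the SMN complex, 0.59), Pdcl3 (0.58), Glipr1 (0.48), Tbkbp1 (a TBK1 binding protein, 0.40), Plekho1 (0.40) and Fbxo46 (an F-box protein, 0.40).

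**Figure D3:**
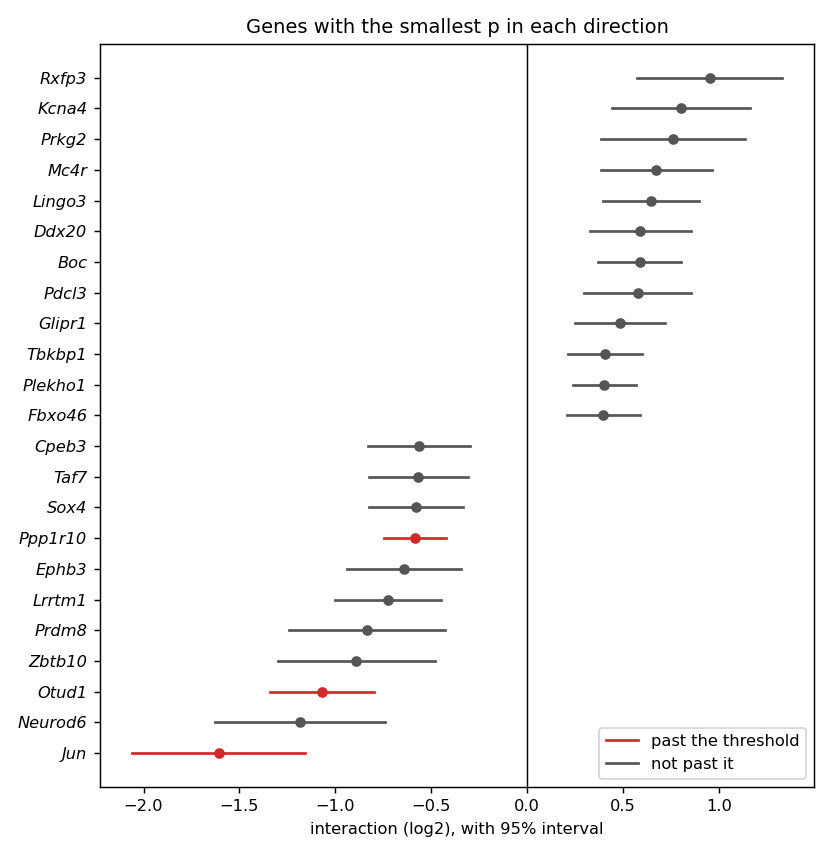
Interaction on the log2 scale (points) with its 95% interval (lines) for genes among the 12 with the smallest p in each direction. Red marks the 3 genes past the adjusted threshold, Jun, Otud1 and Ppp1r10, and none of the intervals shown includes 0.

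Genes with a large average response split almost evenly between smaller and larger responses in the libraries labelled Cre. Averaged over genotypes, 3170 genes passed (24.3%), with 6.45% of all genes higher and 17.8% lower, so that 26.6% of the passing genes rose, a share that became 47.4% under median-ratio scaling, 46.5% with edgeR and TMM, 48.6% with edgeR and DESeq2 size factors and 50.2% with DESeq2. This average is independent of the interaction in a balanced design, although both use the same estimate of the spread. Of its genes 152 rose by at least 1 on the log2 scale. Their median rise was 1.55 without Cre and 1.62 labelled Cre, their median interaction was -0.05 beside 0.02 over all genes, and 81 of them (53.3%) rose less in the libraries labelled Cre. The median turned to 0.03 (48.3%) without vehicle replicate 1 of the slices without Cre and to 0.03 (48.1%) without treated replicate 2 labelled Cre. It was 0.005 (49.2%) with edgeR and TMM scaling, -0.13 (62.5%) without treated replicate 1 labelled Cre and -0.25 (67.6%) without the 4 libraries with low Y-linked values. An unadjusted p under 0.05 was reached by 24 on the lower side and 21 on the higher side, 29.6% together beside 4.35% of all genes. Of the 152 genes 1, Jun, passed (0.023% over all genes). The 14 genes that fell by at least 1 had a median interaction of -0.06, and none passed, with an unadjusted p under 0.05 in 3 (21.4%).

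**Figure D4:**
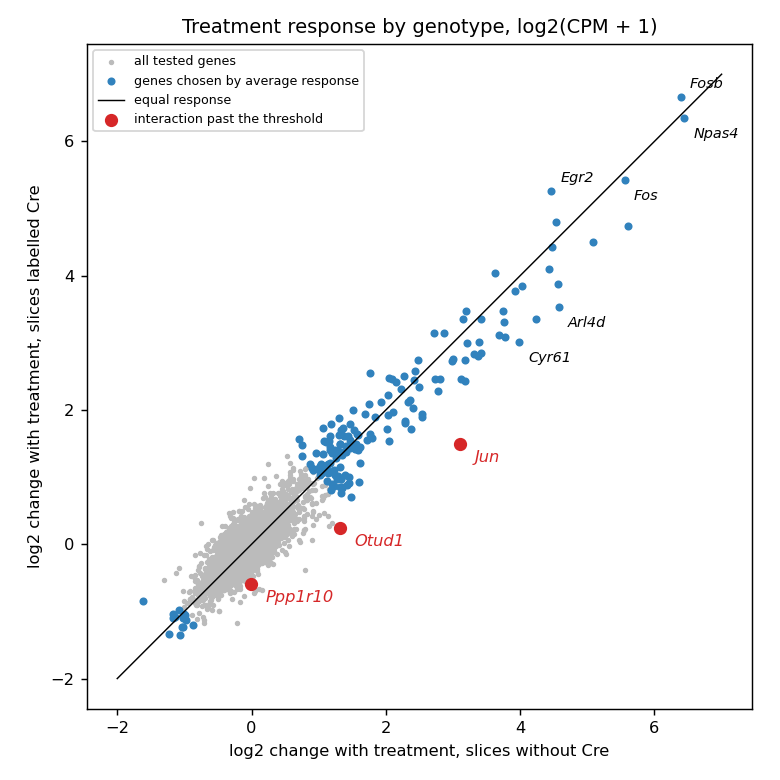
Treated minus vehicle difference on the log2 scale in slices without Cre (x axis) and in slices labelled Cre (y axis) for each gene, with genes of an average change of at least 1 in blue, the 3 genes past the interaction threshold in red, and a line of equal response. Blue points lie on both sides of the line, and Jun and Otud1 lie below it.

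None of the 8 genes with the largest average rise passed for the interaction with limma. Fosb, an AP-1 subunit, stood at 13.7, 43.6 and 14.2 CPM in vehicle and 1674, 1842 and 1901 CPM under treatment without Cre. Labelled Cre the values were 11.4, 13.0 and 8.13 CPM in vehicle and 1213, 1132 and 1178.5 CPM under treatment. Both its vehicle and its treated levels were lower on average in the libraries labelled Cre, and the responses were 6.39 and 6.66. Its interaction of 0.27 had a 95% interval of -0.73 to 1.26. Npas4, a neuron-specific activity-regulated factor, had an interaction of -0.09 with an interval of -1.57 to 1.39, the widest among these 8. Fos, Arc, Egr4 and Nr4a1 had interactions of -0.13, -0.59, 0.27 and -0.04, each with an interval that includes 0. Vehicle replicate 2 without Cre held 43.6 CPM of Fosb, 69.6 CPM of Npas4 and 57.9 CPM of Fos, the latter pair above the 20.0035 and 10.7 CPM and the 22.5 and 28.0 CPM of its 2 group members, and without that library the interactions were -0.82 for Npas4, -0.52 for Fos and -0.26 for Fosb, whose sign turned.

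Egr2 and Ptgs2 moved to opposite sides. Egr2, a zinc finger immediate early factor, stood at 5.22, 8.79 and 7.97 CPM in vehicle and 180, 181 and 177 CPM under treatment without Cre. With the Cre label it was measured at 3.17, 4.00 and 2.52 CPM in vehicle and 172, 148 and 159 CPM under treatment. Its interaction of 0.80 (95% interval 0.32 to 1.27, limma adjusted p = 0.709; DESeq2 adjusted p = 0.0101) came with a lower vehicle level in the libraries labelled Cre, by 0.96 (limma adjusted p = 0.00143), and a treated difference of -0.17. Ptgs2, the inducible cyclooxygenase, stood at 3.06, 7.41 and 4.38 CPM in vehicle and 328, 234 and 270 CPM under treatment without Cre. The libraries labelled Cre held 4.57, 3.99 and 3.18 CPM in vehicle and 122, 174 and 100 CPM under treatment, so its vehicle libraries overlapped and its treated libraries did not. The interaction was -0.87 (95% interval -1.63 to -0.10, limma adjusted p = 0.988). Among the 8 genes with the largest average fall, Gpr6, an orphan receptor coupled to cAMP, had treatment differences of -1.62 without Cre and -0.85 labelled Cre, from vehicle levels of 6.70 to 10.1 and 2.51 to 3.12 CPM, and an interaction of 0.77 (limma adjusted p = 0.432). The other 7 had interactions between -0.28 for Dido1 and 0.06 for Chst12, and none passed.

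By role, Jun belongs to the first wave of activity genes. Of 25 measured immediate early transcription factors, 24 passed with limma for an average rise, beside 6.45% of all genes. An interaction below 0 was found in 15 (60%, beside 44% of all genes), with a median of -0.13. An unadjusted p under 0.05 was reached by 6 on the lower side and 1 on the higher side, 28% of the list, and Jun alone passed. That share was 4.35% over all genes and 29.6% among the 152 genes that rose by at least 1 on average. Klf4 stood at 2.14 to 2.79 CPM in vehicle and 49.0, 57.2 and 38.5 CPM under treatment without Cre, and at 1.496 to 1.75 CPM and 25.01, 19.7 and 19.3 CPM labelled Cre, with an interaction of -0.69 (limma adjusted p = 0.808). The list's median turned to 0.03 without vehicle replicate 1 of the slices without Cre, and it was -0.30 without vehicle replicate 2 of that group and -0.05 without vehicle replicate 2 labelled Cre. In the libraries labelled Cre, 9 of the 25 were lower and 1 higher under treatment (5.95% and 7.5% of all genes), and 6 were lower and 2 higher in vehicle (10.1% and 9.18%).

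Of the 24 immediate early effectors, which include secreted, cytoskeletal and signalling proteins, all rose on average, and 15 had an interaction below 0 with a median of -0.22 (-0.35 to -0.09 with each library left out in turn). An unadjusted p under 0.05 was reached by 5 on the lower and 4 on the higher side (37.5% together). The share was 4.35% over all genes and 29.6% among the 152 genes that rose by at least 1 on average. None of the 24 passed. Cyr61, a secreted matrix protein, stood at 247, 225 and 220 CPM under treatment without Cre and 112, 70.5 and 74.7 CPM labelled Cre, with an interaction of -0.98 (limma adjusted p = 0.582). Arl4d, a small GTPase, stood at 333, 393 and 316 CPM under treatment without Cre and 205, 159 and 162 CPM labelled Cre, with an interaction of -1.03 (limma adjusted p = 0.709). For both genes the treated groups did not overlap. Pim1, a serine/threonine kinase, reached 104, 99.4 and 115 CPM and 111, 104 and 98.2 CPM under treatment, which overlap, from lower vehicle levels in the libraries labelled Cre, and its interaction was 0.41 (limma adjusted p = 0.929).

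Jun was the one AP-1 gene that passed with limma. Of 16 measured AP-1 and related bZIP genes, 14 rose on average, and 11 of them passed with limma, beside 6.45% of all genes. An interaction below 0 was found in 12 (75%, beside 44% of all genes), and the median was -0.07. Besides Jun, only Maff reached an unadjusted p under 0.05, at -0.44 (limma adjusted p = 0.988). Junb, another inducible JUN gene, stood at 45.4, 65.7 and 58.3 CPM in vehicle and 919, 919 and 937 CPM under treatment without Cre. With the label the levels were 39.2, 42.9 and 39.6 CPM in vehicle and 601, 605 and 575 CPM under treatment. Junb was lower in the libraries labelled Cre at both treatments, by 0.45 in vehicle and 0.64 under treatment (limma adjusted p = 0.00988 and 0.001335), so its interaction was -0.19 (95% interval -0.50 to 0.13). Jund went from 185 to 204 CPM in vehicle to 448 to 529 CPM under treatment without Cre, and from 152 to 172 CPM to 327 to 415 CPM labelled Cre. Its interaction was -0.16 (95% interval -0.44 to 0.13). Fosl2, Atf3 and Fosl1 had -0.26, -0.60 and 0.23, each with an interval that includes 0. Of 17 measured JNK pathway genes, whose kinases phosphorylate c-Jun, none reached an unadjusted p under 0.05 and the median was -0.01.

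The families of the other passing genes gave no further call. The lists were 15 OTU deubiquitinases and 10 genes of the phosphatase complex of Ppp1r10 and other nuclear partners of protein phosphatase 1. In each, 1 gene had an unadjusted p under 0.05, Otud1 and Ppp1r10 themselves, with list medians of 0.01. Wdr82, a partner of Ppp1r10 in that complex, had an interaction of -0.31 (95% interval -0.63 to 0.01). The MEF2 family and class IIa histone deacetylases, 8 genes, had a median of -0.02 and no p under 0.05, with Mef2a at -0.08, Mef2d at -0.05 and Hdac5 at 0.22.

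**Figure D5:**
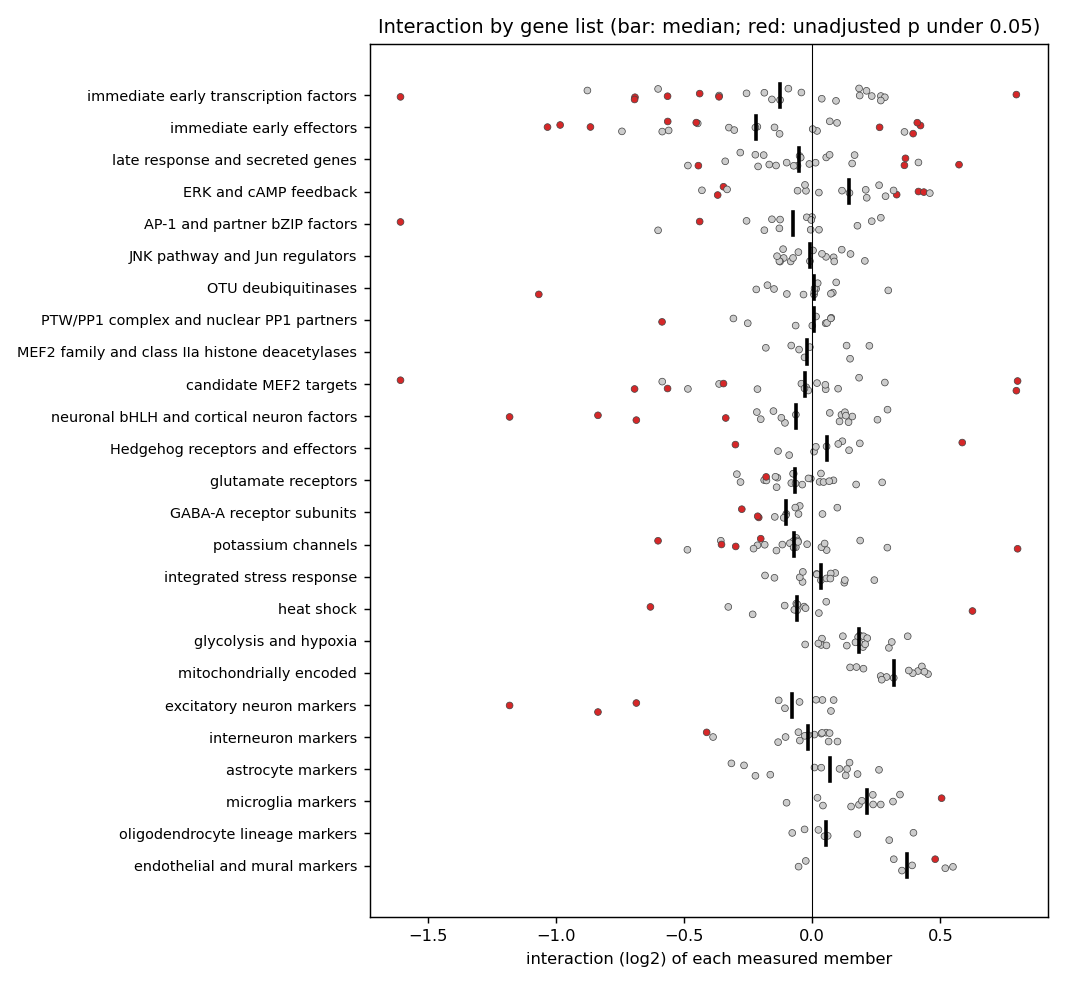
Interaction on the log2 scale (x axis) of the measured members of each gene list (rows, 1 point per gene), with the list median as a bar and members with an unadjusted limma p under 0.05 in red. The immediate early transcription factors run from -1.61 for Jun to 0.80 for Egr2.

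With limma, no gene of the slower, feedback, receptor and channel groups passed. Of 24 late response and secreted genes 4 reached an unadjusted p under 0.05 (16.7%), 1 lower and 3 higher. Of 19 genes of ERK and cAMP feedback 5 did (26.3%), 2 lower and 3 higher. The share was 4.35% over all genes and 29.6% among the 152 genes that rose by at least 1 on average. Pde4b, a phosphodiesterase that degrades cAMP, went from 70.2, 76.0 and 77.9 CPM to 110, 109 and 99.5 CPM without Cre and from 66.8, 66.9 and 69.4 CPM to 74.9, 75.9 and 72.3 CPM labelled Cre. Its groups separated under treatment by more than in vehicle, and its interaction was -0.37 (95% interval -0.55 to -0.19, limma adjusted p = 0.362), while DESeq2 called it (adjusted p = 0.0084). Among 12 GABA-A receptor subunits, the target of picrotoxin, 10 had a value below 0, beside 44% of all genes, with a median of -0.10 and a lowest value of -0.28 in Gabrb2. An unadjusted p under 0.05 was reached by 3 of them (25%, beside 4.35% of all genes), all lower. The 25 potassium channel genes include voltage-gated channels, the target of 4-aminopyridine, and channels of other types. Of these 25, 19 had a value below 0 (76%, beside 44% of all genes), with a median of -0.07. On the lower side 4 reached an unadjusted p under 0.05 and on the higher side 1, 20% together beside 4.35% of all genes. Kcnj3, a G protein-gated channel, had -0.35 (limma adjusted p = 0.909), and Kcna4 had 0.80, which DESeq2 called (adjusted p = 0.00323). None of the 22 glutamate receptor genes passed, and 1, Grm5 at -0.18, reached an unadjusted p under 0.05.

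The remaining lists were described by the same counts. Of 20 candidate MEF2 targets, a list that holds Jun, 12 had a value below 0 (60%, beside 44% of all genes), and the median was -0.03. On the lower side 4 reached an unadjusted p under 0.05 and on the higher side 2, 30% together beside 4.35% of all genes. Of the 20, 15 passed with limma for an average rise. Among the 152 genes that rose by at least 1 on average, 29.6% reached an unadjusted p under 0.05, a share close to that of this list. Of 19 neuronal bHLH and cortical neuron factors 4 reached an unadjusted p under 0.05 (21.1%), all lower, led by Neurod6 and by Bhlhe22 at -0.34 (limma adjusted p = 0.885). Of 11 Hedgehog receptors and effectors 8 had a value above 0, with Boc and Disp2, a protein of the family that releases Hedgehog ligands, on opposite sides at 0.59 and -0.30. None of 15 genes of the integrated stress response reached an unadjusted p under 0.05.

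No cell type marker passed with limma over all 12 libraries. Microglia markers had a median interaction of 0.22, above 0 in 11 of 12, and lay between 0.09 without vehicle replicate 3 labelled Cre and 0.30 without vehicle replicate 1 labelled Cre. It was 0.11 without vehicle replicate 1 of the slices without Cre and 0.13 without treated replicate 2 labelled Cre. Over all genes 56% were above 0. Cd68, a lysosomal protein, had 0.50 (limma adjusted p = 0.988). Their summed level was 412 to 516 CPM in vehicle and 330 to 370 CPM under treatment without Cre, and 297 to 396 and 266 to 338 CPM labelled Cre, so the vehicle libraries without Cre were the highest. Endothelial and mural markers had a median of 0.37 (0.23 without treated replicate 2 of the slices without Cre), above 0 in 6 of 8, with a summed level of 106 to 138 and 74.2 to 105 CPM without Cre and 89.1 to 110 and 88.7 to 103 CPM labelled Cre. No marker of either list was at 0 in all libraries. Interneuron, astrocyte and oligodendrocyte lineage markers had medians of -0.02, 0.07 and 0.05. Excitatory neuron markers had a median of -0.08. An unadjusted p under 0.05 was reached by 3 of 10 (30%, beside 4.35% of all genes), Neurod6 and Tbr1 among them. The summed level of the excitatory neuron markers, 8293 to 10520 CPM, overlapped among all 4 groups. Neurod6 passed with DESeq2 (adjusted p = 0.000125), library weights, the replicate block over all libraries, and without treated replicate 2 labelled Cre. Tbr1 held 127, 123 and 63.9 CPM in the treated libraries without Cre, with an interval of -1.28 to -0.10, and it passed without replicate 3 of that group (-1.01, limma adjusted p = 0.00063). The part of cell makeup in these interactions was not tested.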

How the data were processed

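Polyadenylated RNA of 12 slice culture libraries was sequenced in pairs of 150 bp. The values deposited are CPM that the authors made for 21967 gene symbols, each column summing to 1e+06. Per the submitters' processing notes, FastQC, Trimmomatic, STAR and DESeq2 were used with mm10. The counting tool, its annotation and all versions were not given in the sources used here. Columns headed WT and KO were taken as slices without and with the Cre label, and 0 columns were left without a sample. Reads, recovered as CPM over the smallest step of a column and whole within 5.1e-09 of a read, gave depth and the count alternatives. In vehicle replicate 1 labelled Cre the step lies near a power of 10, where an automatic test for whole reads cannot decide. A count of 0 allows up to 3 reads (0.0214 to 0.0365 CPM), which covers counting error only. No replicates were copies (chi-squared over degrees of freedom 24.01 to 165.26).

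Log2(CPM + 1), which understates changes of low genes, was fitted with limma 3.58.1 in R 4.3.3 as a means model over 4 groups, with trend and robust moderation. P-values are two-sided and Benjamini-Hochberg adjusted over 13048 genes (threshold 0.05), and measure the spread between libraries, which may be technical. The method was tested on simulated counts, drawn independently for each library with the same dispersion for every gene. These counts held no library or pair effects, so they do not show how the fit behaves on these libraries. Named genes were Mef2c, passing genes, the 12 smallest p-values in each direction, the 8 largest average changes in each direction, up to 3 members per list with the smallest p, and MEF2 and AP-1 members. The ranked choices skipped sex-linked, predicted and mitochondrially encoded genes. The members, the 25 lists and the tests were chosen with earlier results of these data known. Some genes that the rule names are not reported here. Genes with a promoter MEF2 match were named after their values were seen. Coordinates come from GENCODE M21, which holds 19609 of the symbols.

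Alternatives were other pseudocounts, filters and scalings, replicate blocks, library weights (gene by gene, since the REML weights did not converge), a covariate for low Y-linked values, edgeR 4.0.16, DESeq2 1.42.0 and leaving out each library.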

Additional observations from a re-analysis of the deposited data

Results flagged for a closer look

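In 3 genes the treatment response differed between slices without Cre and slices labelled Cre by the limma test of that difference itself, adjusted over all tested genes. The interaction was -1.61 for Jun, -1.07 for Otud1 and -0.59 for Ppp1r10 on the log2 scale. In Jun and Otud1 the rise was smaller in the libraries labelled Cre, and in Ppp1r10 a fall was measured there beside a difference of -0.01 without Cre. The sign held in all 27 alternatives, but Jun passed in 16 of them, Otud1 in 17 and Ppp1r10 in 16. No gene passed with the replicate block within genotype, or when any vehicle library was left out.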

How the results depend on the processing

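The count of genes past the interaction threshold, 3, was 0 without the 4 libraries with low Y-linked values (chosen after seeing the data), 42 with DESeq2 and 70 with library weights, and it lay between 0 and 6 when each library was left out. It was between 2 and 4 under the other pseudocounts, filters, scalings, moderation, edgeR fits and the covariate. With library weights the average treatment effect was called in 5265 genes and without the 4 libraries in 2003, beside 3170, and leaving out each library gave 2467 to 3723. The cause of these changes was not tested. Of 3175 values of 118 named genes, 78 changed sign, all in genes that did not pass. Low genes are limited by depth and all results by 3 libraries per group.

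The replicate block over all 12 libraries gave 4 calls, and the replicate block within genotype gave 0. Same-numbered vehicle and treated libraries of a genotype had correlations of 0.06 to 0.48, over 0.1 in all 3 pairs labelled Cre and in 1 of 3 without Cre. Vehicle and treated libraries of a genotype with different numbers had -0.25 to 0.13 without Cre and -0.25 to -0.01 labelled Cre. The labels do not explain the replicate numbers, and the main fit did not take same-numbered libraries as pairs. These correlations do not settle whether the libraries are paired. If they are, the fit that applies is the replicate block within genotype, in which no gene passed. The library with low Y-linked values had number 2 in both treatments without Cre and number 1 in both labelled Cre. Over all groups 9 of 18 same-numbered pairs were over 0.1, and 8 of 12 libraries were closest to a library of their own number.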

Other observations

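One library in each group had a summed Y-linked level (Ddx3y, Uty, Eif2s3y and Kdm5d) under 10 CPM, and the other 8 had 90.4 to 119 CPM. In 3 of those 4 the sum was 0.395 to 0.596 CPM, and in vehicle replicate 2 without Cre it was 3.89 CPM. Without these 4 libraries, an alternative chosen after seeing the data, 67.6% of the risen responders had a smaller rise in the libraries labelled Cre, beside 53.3% over all libraries.

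Metabolic lists moved little as single genes. Of 18 glycolysis and hypoxia genes 17 had an interaction above 0, with a median of 0.18 (0.09 to 0.21 with each library left out) and none at an unadjusted p under 0.05, and Slc2a1, a glucose transporter, had 0.37. All 13 mitochondrially encoded genes were above 0 with a median of 0.32. That median was 0.08 without treated replicate 1 of the slices without Cre, 0.13 without vehicle replicate 2 labelled Cre and 0.57 without treated replicate 3 of the slices without Cre, and their summed level was 31890 to 54440 CPM in the treated libraries without Cre, the widest range of the 4 groups. Of 13 heat shock genes 10 had an interaction below 0 (76.9%, beside 44% of all genes), with a median of -0.06. The highest was Hspb1 at 0.63, and the lowest was Dnajb1, a co-chaperone that rose in both genotypes, at -0.63.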
